A study of Mus musculus with 10 samples.

Results

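Retinoic acid is made from vitamin A in a short chain of enzyme steps, and 10 genes of that chain and of its receptors were followed here in the inflamed mouse colon. The set comprised Rdh10 and Dhrs3, which interconvert retinol and retinal; Aldh1a1, Aldh1a2 and Aldh1a3, which oxidize retinal to retinoic acid; Cyp26a1 and Cyp26b1, which break retinoic acid down; and the receptor genes Rara, Rarb and Rarg. They were taken by gene name from the 32132 genes of the deposited expression table, where all 10 were found, and 9 of the 10 passed the filter on low counts. The set was chosen by a measured value, that Cyp26b1 was higher with the treatment in these same libraries; the values of Cyp26b1 are therefore given as a description without a test.

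RNA was sequenced from whole colons of adult wild-type C57BL/6 mice in 10 libraries. All mice, controls included, drank 3% dextran sulfate sodium (DSS), a polysaccharide that injures the colon epithelium, for 7 days. Over the same days 5 mice received intravenous phosphate-buffered saline (PBS) at 200 ul per 20 g body weight a day, and 5 received the same volume of 4-HDHA, a hydroxylated docosahexaenoic acid, in PBS, with its strength written as 5 um. No mice without DSS were analysed here, and the labels do not state separately that each library came from a different animal, so p-values measure the spread between these libraries. Total counts lay between 50915365 and 66470519 per library. All 12 colon epithelium markers examined were detected, among them Epcam at a mean of 1326 CPM (counts scaled to library size) with PBS and Muc2, the gel-forming mucin gene, at 4436 CPM. Both groups held libraries of uneven tissue makeup. In the 4-HDHA group, replicate 4 had the highest summed adipocyte, fibroblast and endothelial markers of the 10 libraries, and replicate 5 had the highest B cell markers and the lowest smooth muscle markers of its group. In the PBS group, replicate 4 had the lowest summed fibroblast, endothelial and macrophage markers of the 10 libraries. Smooth muscle sums ran from 1103 to 5234 CPM within that group.

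As background, RDH10 oxidizes retinol to retinal and DHRS3 reduces retinal back, so the pair sets how much retinal is available. The ALDH1A enzymes then make retinoic acid in an irreversible step, and the CYP26 cytochromes clear it. Retinoic acid binds the receptors RAR alpha, beta and gamma, which sit on DNA as heterodimers with RXR, often at direct repeats of a hexamer half-site with a spacer of 5 bases (DR5). Several genes of the chain, Cyp26a1, Rarb and Dhrs3 among them, are themselves induced by retinoic acid. In the gut, epithelium and dendritic cells make retinoic acid, which imprints lymphocytes with the gut-homing molecules integrin alpha4 beta7 and CCR9.

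Promoter sequence from RefSeq (build GRCm38.p6) was available for 8 of the 10 genes, in 15 windows that each run from 250 bases before to 50 bases after a transcript start. The upstream 250 bases of 3 genes are shown because they show how a classic receptor element is placed in some genes of the chain and has no match in the window of the gene that differed most between the groups. They are written 5′ to 3′ on the strand of the gene, with a DR5 element in capitals. The Rarb region is chr14:16575477-16575726 (minus strand), the Cyp26a1 region is chr19:37697558-37697807 (plus strand) and the Cyp26b1 region is chr6:84593811-84594060 (minus strand).
Rarb: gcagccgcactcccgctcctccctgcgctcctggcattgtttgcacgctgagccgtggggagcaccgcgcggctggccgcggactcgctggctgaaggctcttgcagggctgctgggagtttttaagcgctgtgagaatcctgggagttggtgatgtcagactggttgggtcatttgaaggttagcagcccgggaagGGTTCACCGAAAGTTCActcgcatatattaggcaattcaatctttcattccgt
Cyp26a1: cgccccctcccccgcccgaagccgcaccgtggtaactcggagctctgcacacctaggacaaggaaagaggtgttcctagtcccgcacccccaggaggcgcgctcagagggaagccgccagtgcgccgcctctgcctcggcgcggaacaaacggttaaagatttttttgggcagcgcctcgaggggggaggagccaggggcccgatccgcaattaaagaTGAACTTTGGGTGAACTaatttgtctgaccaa
Cyp26b1: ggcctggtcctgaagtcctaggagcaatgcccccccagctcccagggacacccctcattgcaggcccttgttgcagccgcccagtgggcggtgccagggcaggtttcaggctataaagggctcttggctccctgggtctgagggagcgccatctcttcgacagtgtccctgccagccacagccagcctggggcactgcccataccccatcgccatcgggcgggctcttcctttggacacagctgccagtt
In Rarb the element runs from position -53 to position -37 relative to the transcript start, on the strand of the gene. In Cyp26a1 the element lies on the opposite strand and covers positions -32 to -16. With both strands searched and both half-sites required, the DR5 was found in 32 of 32851 promoter windows (0.0974%), those of the 27025 genes with promoter sequence. The other 13 windows of these genes, the one of Cyp26b1 included, held no match; these windows are short, and this says only that the letters searched are not in them.

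The genes differed widely in abundance, on the scale of FPKM (fragment counts scaled to gene length and library size), which allows levels to be compared between genes. Dhrs3 had the highest mean level over the 10 libraries at 14.2 ± 3.61 FPKM (SD, n = 10), followed by Rdh10 at 12.01 ± 2.67 FPKM and Aldh1a3 at 10.5 ± 6.26 FPKM. The order of these 3 was not stable from library to library: Dhrs3 exceeded Rdh10 in 6 of 10 libraries, and Rdh10 exceeded Aldh1a3 in 7 of 10. Rara at 4.79 ± 1.02 FPKM and Aldh1a1 at 4.57 ± 1.299 FPKM came next and were level, each being the higher one in 5 of 10 libraries. Rarg had 3.09 ± 0.86 FPKM and exceeded Aldh1a2, at 0.740 ± 0.282 FPKM, in all 10 libraries. Cyp26b1 averaged 0.601 ± 0.400 FPKM and lay below Aldh1a2 in 7 of 10 libraries. The order of their means differed by group. With PBS, Cyp26b1 averaged 0.274 and Aldh1a2 0.673 FPKM, and with 4-HDHA 0.927 and 0.806 FPKM. Rarb averaged 0.224 ± 0.156 FPKM and lay below Cyp26b1 in 9 of 10.

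**Figure D1:**
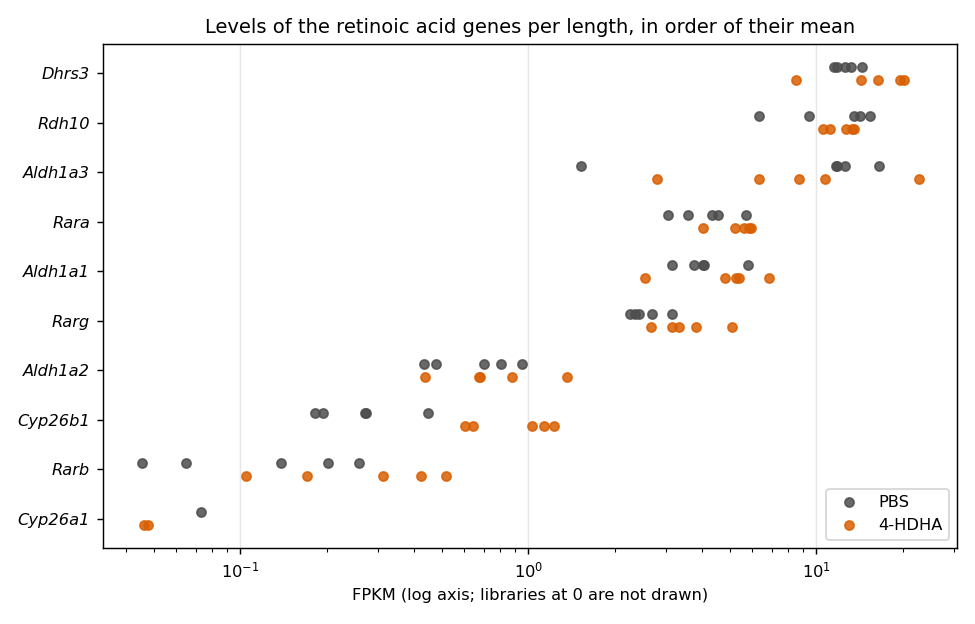
FPKM of each gene on a log axis, with genes in the order of their mean over 10 libraries and points for PBS (grey) and 4-HDHA (orange) libraries. Cyp26b1 is the gene whose groups separate, from 0.182 to 0.449 FPKM with PBS and from 0.603 to 1.23 FPKM with 4-HDHA; libraries at 0 (Cyp26a1) are not drawn.

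Cyp26b1 (chromosome 6, 84571414 to 84593908, minus strand on mm10) encodes the retinoic acid hydroxylase that made up most of the summed FPKM of the CYP26 pair. With PBS it stood at 1.80, 2.54, 0.992, 1.63 and 1.31 CPM in replicates 1 to 5, from 176 counts at most. With 4-HDHA it stood at 7.74, 6.97, 3.30, 6.11 and 4.07 CPM, from 215 to 385 counts. Each 4-HDHA library thus lay above each PBS library, with replicate 3 the lowest 4-HDHA library and PBS replicate 2 the nearest control. The means were 1.65 ± 0.583 and 5.64 ± 1.89 CPM (SD, n = 5 each), and the fitted log2 fold change was 1.77 (SE 0.32), a 3.40-fold higher level with 4-HDHA. Over the whole table, 180 of 19615 genes had an upward fold change at least as large, and 1.16% of genes had non-overlapping groups with the higher values under 4-HDHA. Since this contrast chose the set, nothing is read from these ranks. In whole tissue, more or fewer cells of a type and more or less RNA per cell cannot be told apart.

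**Figure D2:**
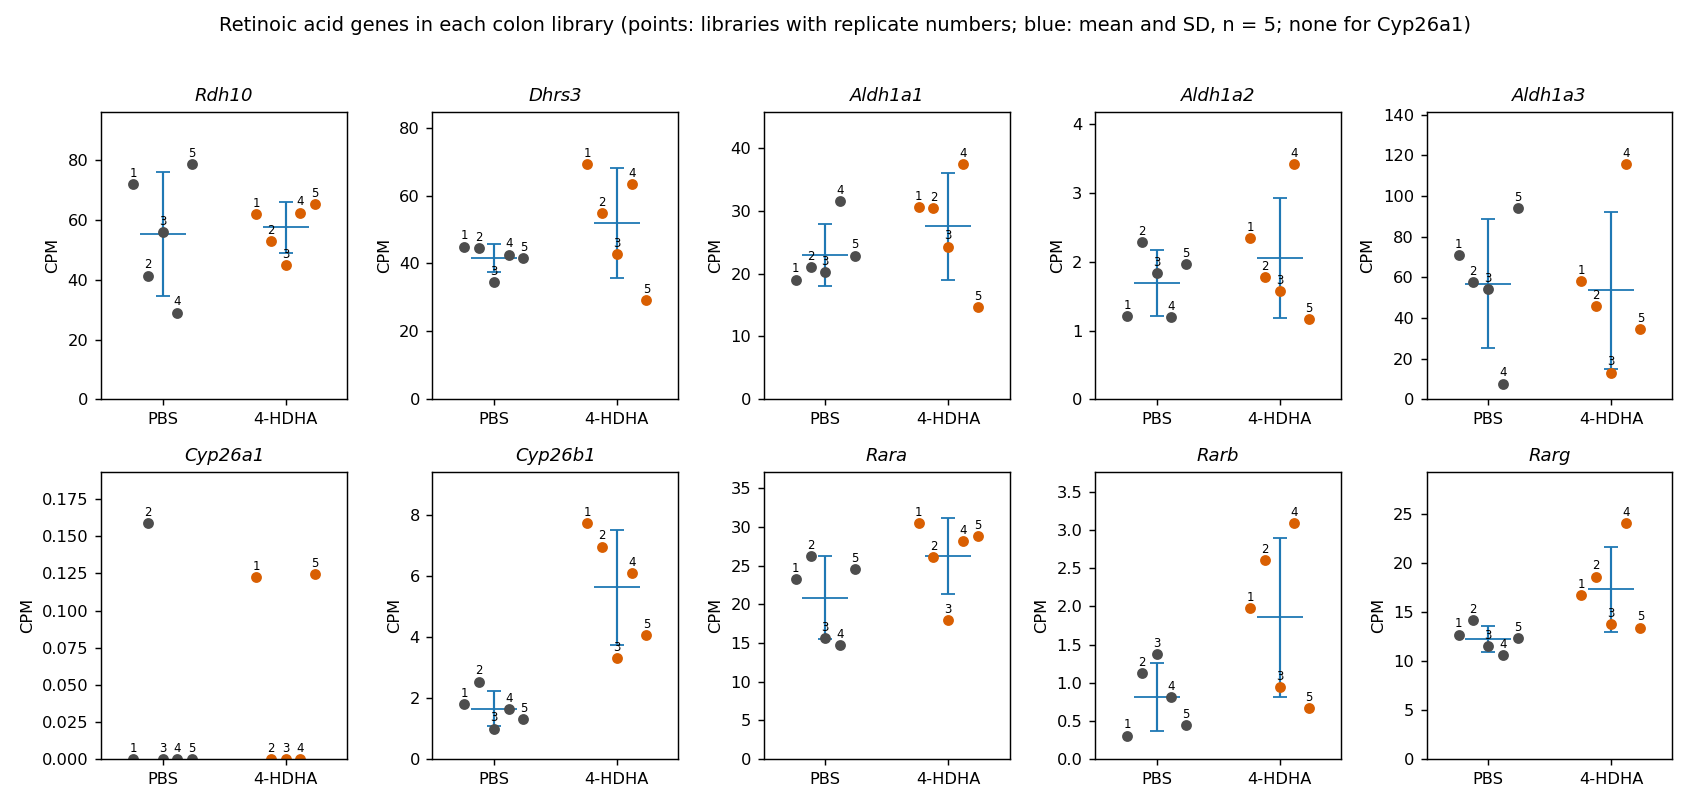
CPM of the 10 genes in each library, with replicate numbers beside the points, and the mean and SD of each group in blue (not drawn for Cyp26a1). Cyp26b1 is the gene whose groups do not overlap (0.992 to 2.54 CPM with PBS, 3.30 to 7.74 CPM with 4-HDHA), and Aldh1a3 spans a wide range within both groups.

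As a further description of the value that chose the set, leaving out each library in turn gave log2 fold changes between 1.63, without 4-HDHA replicate 1, and 1.98, without PBS replicate 2. Leaving out both 4-HDHA replicates 4 and 5, a choice made after seeing the data, gave 1.85. On the log2(FPKM + 1) scale the difference was 0.59, since the added 1 exceeds most of the gene's own FPKM values.

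Markers of colon wall cell types were set beside Cyp26b1; none of them passed the adjusted threshold, and each summed list overlapped between the groups. Summed fibroblast markers spanned 970 to 2691 CPM with PBS and 1455 to 6761 CPM with 4-HDHA, and 6 of 10 had an unadjusted p under 0.05 in edgeR's quasi-likelihood test, all higher, against 7.39% of all genes tested. Summed smooth muscle markers spanned 1103 to 5234 CPM with PBS and 1491 to 8370 CPM with 4-HDHA (4 of 10 genes at that threshold, all higher). Endothelial markers spanned 174 to 334 and 261 to 629 CPM (3 of 10, all higher), and adipocyte markers 36.1 to 60.4 and 57.0 to 275 CPM (7 of 9 tested, all higher). Of the adipocyte markers, 4 had non-overlapping groups like Cyp26b1, where 1.16% of all genes tested had such a separation upward. They were Adipoq, Cfd, Plin1 and Car3, with fold changes from 2.83 for Car3 to 4.01 for Cfd on the log2 scale. The mean log2 CPM of the adipocyte list did not overlap either, at most 0.79 with PBS and at least 1.23 with 4-HDHA. Summed colon epithelium markers spanned 10595 to 20338 CPM with PBS and 11092 to 18406 CPM with 4-HDHA. Of these markers, 2 of 12 were at the unadjusted threshold, both lower, where 7.45% of all genes tested were lower. Of the other lists, 2 of 8 macrophage, 3 of 10 B cell, 2 of 10 enteric neuron and glia, 1 of 8 squamous epithelium and 0 of 8 skeletal muscle markers were higher at that threshold and 0 were lower. All 8 squamous epithelium and all 8 skeletal muscle markers had a positive fold change, with medians of 0.92 and 0.89 on the log2 scale, beside 0.01 over all genes tested. No marker of the lists was at 0 in all libraries. The part of these tissues in the Cyp26b1 difference was not tested.

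The smooth muscle sum was 2309, 5230, 1103, 2642 and 5234 CPM in PBS replicates 1 to 5 and 8370, 7675, 5638, 6572 and 1491 CPM in 4-HDHA replicates 1 to 5. Within the 4-HDHA group, replicates 1, 2 and 4 were the 3 highest both for this sum and for Cyp26b1. Within the PBS group, replicate 3 was the lowest for both. Elsewhere the orders differed. PBS replicate 5 had the highest sum of its group, but its Cyp26b1, at 1.31 CPM, lay below PBS replicates 1, 2 and 4. Of the 4-HDHA libraries, replicate 5 had the lowest sum, but replicate 3 had less Cyp26b1 (3.30 against 4.07 CPM). The match of 4-HDHA replicates 1, 2 and 4 was not particular to smooth muscle. They were also the 3 highest of their group for summed fibroblast, endothelial, macrophage, and enteric neuron and glia markers. For these lists the lowest PBS library was replicate 4. In the remaining cell type lists, the 3 highest of the 4-HDHA group included replicate 5. The part of any of these cell types in the Cyp26b1 values was not tested.

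**Figure D3:**
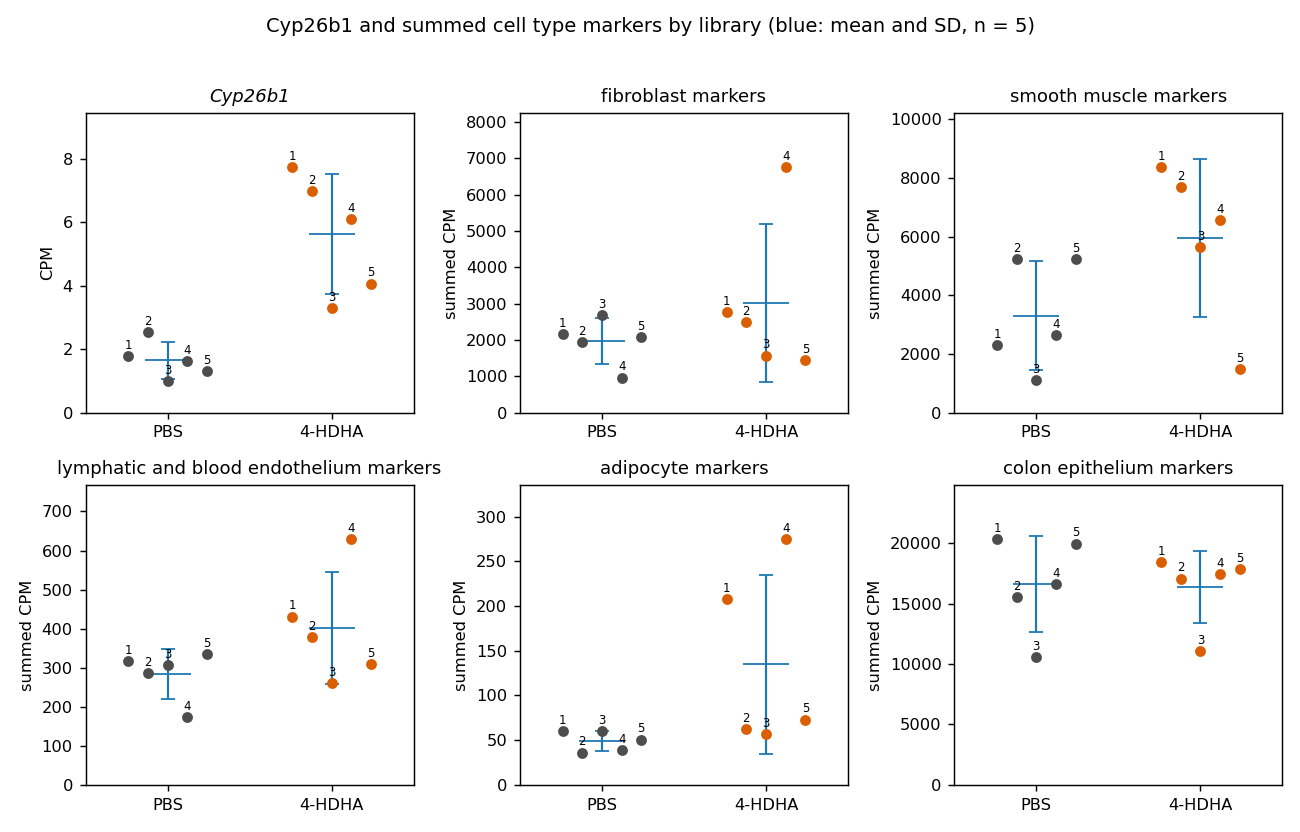
Cyp26b1 CPM and the summed CPM of 5 cell type marker lists in each library, with replicate numbers and, in blue, the mean and SD of each group. Cyp26b1 does not overlap between the groups and the summed lists do. However, 4 single adipocyte markers do not overlap, where 1.16% of all genes tested separate upward. Fibroblast, endothelial and adipocyte sums peak in 4-HDHA replicate 4 (6761, 629 and 275 CPM).

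Cyp26a1 (chromosome 19, 37697798 to 37701536, plus strand), the other retinoic acid hydroxylase and a classic retinoic acid target, was close to undetected. It had 0 counts in 7 of the 10 libraries, which allows up to 3 counts a library, or 0.0461 to 0.0613 CPM by library size; this covers counting error only. The other 3 libraries held 11 counts in PBS replicate 2, 6 in 4-HDHA replicate 1 and 8 in 4-HDHA replicate 5. A difference between groups was not detectable for Cyp26a1 at this depth, and the gene did not pass the filter on low counts.

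Among the receptors, Rarb (chromosome 14, 16430839 to 16575827, minus strand), itself a retinoic acid target, was scarce. Its CPM values with PBS were 0.306, 1.13, 1.38, 0.814 and 0.443 in replicates 1 to 5, and with 4-HDHA 1.98, 2.61, 0.937, 3.09 and 0.668. Replicates 1, 2 and 4 of the 4-HDHA group lay above all PBS libraries, and replicates 3 and 5 lay among them. The means were 0.814 ± 0.451 and 1.86 ± 1.04 CPM (SD, n = 5 each), with a log2 fold change of 1.18 (95% interval 0.05 to 2.31). The gene did not pass in edgeR's quasi-likelihood test over all genes (Benjamini-Hochberg adjusted p = 0.328). Its 3′ end overlaps by 4624 bases the neighbouring gene Top2b on the other strand, expressed at a mean of 87.1 CPM with a log2 fold change of -0.07, and whether the counting used strand is not given in the sources used here, so that Rarb values are uncertain.

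Rarg (chromosome 15, 102234938 to 102257517, minus strand), the receptor gene known for its role in epithelia, had 12.7, 14.2, 11.5, 10.6 and 12.3 CPM with PBS. With 4-HDHA it had 16.7, 18.6, 13.8, 24.03 and 13.4 CPM. The groups overlapped, 4-HDHA replicates 3 and 5 lying below PBS replicate 2. The log2 fold change was 0.50 (95% interval 0.11 to 0.89; edgeR adjusted p = 0.304), and it was 0.36 without 4-HDHA replicate 4.

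Rara (chromosome 11, 98927818 to 98974162, plus strand), the most abundant receptor of the family in these colons, spanned 14.7 to 26.3 CPM with PBS and 18.0 to 30.5 CPM with 4-HDHA. Its log2 fold change was 0.33 (95% interval -0.11 to 0.78; edgeR adjusted p = 0.428). Rara made up 51.0 to 66.9% of the summed FPKM of the 3 receptor genes over the 10 libraries. The summed receptor level was 6.97 ± 1.32 FPKM with PBS and 9.24 ± 1.52 FPKM with 4-HDHA (SD, n = 5 each), with overlapping groups.

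At the entry to the chain, Rdh10 (chromosome 1, 16105774 to 16133734, plus strand), which makes retinal, spanned 29.0 to 78.9 CPM with PBS and 44.9 to 65.3 CPM with 4-HDHA. Its log2 fold change was 0.05 (95% interval -0.49 to 0.59; edgeR adjusted p = 0.931). Dhrs3 (chromosome 4, 144892827 to 144927645, plus strand), which reduces retinal back to retinol, had 44.9, 44.5, 34.5, 42.6 and 41.5 CPM with PBS and 69.3, 54.9, 42.7, 63.4 and 29.3 CPM with 4-HDHA. The 4-HDHA libraries lay on both sides of the narrow PBS range: replicates 1, 2 and 4 above it, replicate 3 inside it and replicate 5 below it. The log2 fold change of Dhrs3 was 0.32 (95% interval -0.13 to 0.77; edgeR adjusted p = 0.448, and it was 0.19 without 4-HDHA replicate 1).

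Of the retinal dehydrogenases, Aldh1a3 (chromosome 7, 66390890 to 66427517, minus strand) was the most abundant on average and the most variable. Its values with PBS were 70.8, 57.6, 54.1, 7.76 and 94.0 CPM, and with 4-HDHA 58.3, 46.0, 13.2, 116 and 34.4 CPM. The lowest library of each group, PBS replicate 4 and 4-HDHA replicate 3, was also the lowest of its group for Rdh10. The highest FPKM was 14.9 times the lowest, the widest span of the set after setting aside Cyp26a1, and the fitted log2 fold change of -0.09 had a 95% interval of -1.44 to 1.27 (edgeR adjusted p = 0.956). Its direction turned without PBS replicate 5 (0.17), without 4-HDHA replicate 3 (0.16), without 4-HDHA replicate 5 (0.04) and without PBS replicate 1 (0.00).

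Aldh1a1 (chromosome 19, 20492715 to 20643465, plus strand), a cytosolic retinal dehydrogenase, spanned 19.1 to 31.5 CPM with PBS and 14.7 to 37.5 CPM with 4-HDHA (log2 fold change 0.26, 95% interval -0.25 to 0.78, edgeR adjusted p = 0.585). The fold change of Aldh1a1 was 0.13 without 4-HDHA replicate 4 and 0.42 without 4-HDHA replicate 5. Its close relative Aldh1a7 was counted at a mean of 5.13 CPM in controls and 4.60 CPM under 4-HDHA, and reads could be split between the pair. Aldh1a2 (chromosome 9, 71215789 to 71296243, plus strand), the form of dendritic and mesothelial cells, spanned 1.196 to 2.28 CPM with PBS and 1.17 to 3.42 CPM with 4-HDHA (log2 fold change 0.28, 95% interval -0.44 to 0.99, edgeR adjusted p = 0.680). The upper end came from 4-HDHA replicate 4, without which the fold change of Aldh1a2 was 0.03. Of 10 dendritic cell markers and of 8 mesothelial markers, 0 and 1 had an unadjusted p under 0.05, beside 14.8% of all genes tested. The summed level of the 3 dehydrogenases was 15.7 ± 4.82 FPKM with PBS and 16.0 ± 9.05 FPKM with 4-HDHA (SD, n = 5 each), against 0.289 ± 0.137 and 0.946 ± 0.288 FPKM for both CYP26 genes together. Aldh1a3 supplied 19.5 to 78.8% of the dehydrogenase sum, its share being smallest in PBS replicate 4 and 4-HDHA replicate 3.

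Over the whole table, 0 of 19615 genes (0%) passed edgeR's test at a Benjamini-Hochberg threshold of 0.05, and 2911 (14.8%) had an unadjusted p under 0.05. Cyp26b1 set aside, 0 of the 8 genes tested passed, and Rarb and Rarg were the 2 with an unadjusted p under 0.05. DESeq2 called 308 of 20730 genes (1.49%; 0.97% called and higher), and 0 of those 8. Of the same 8 genes, 7 had a positive and 1 a negative fold change, with a median of 0.30 on the log2 scale; over all genes tested 10008 were positive and 9607 negative, with a median of 0.01. Within the 4-HDHA group, replicate 4 was highest for Aldh1a1, Aldh1a2, Aldh1a3, Rarb and Rarg, and replicate 5 was lowest for Dhrs3, Aldh1a1, Aldh1a2, Rarb and Rarg.

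**Figure D4:**
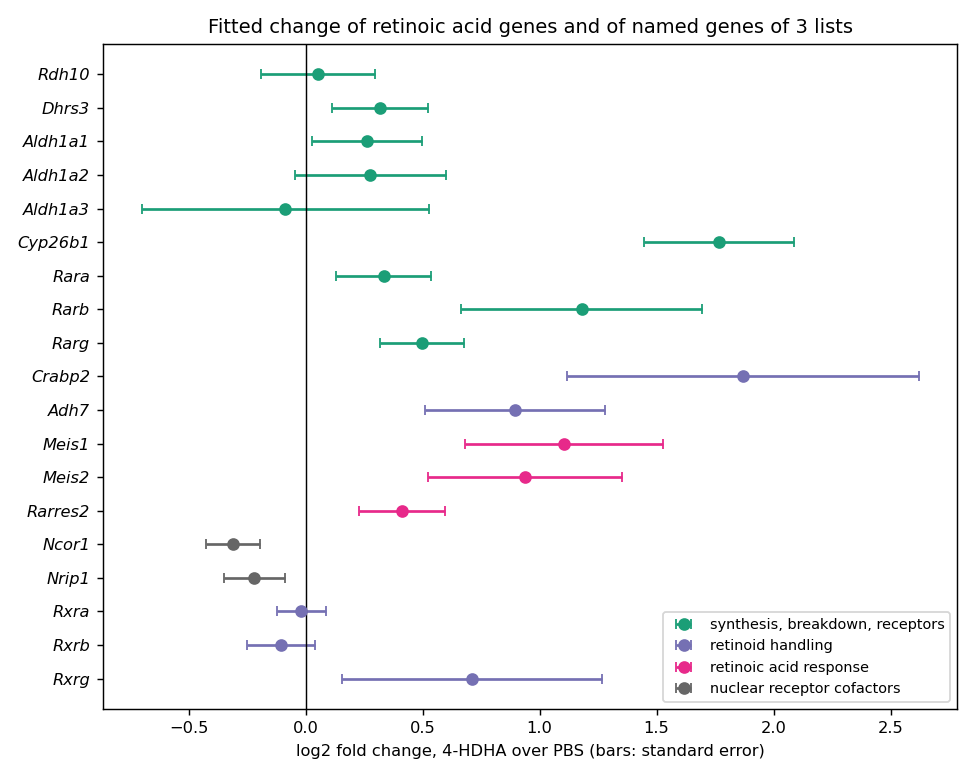
Fitted log2 fold change of 4-HDHA over PBS (points) with its standard error (bars) for the 9 tested genes of the set and for the named genes of 3 lists. Cyp26b1 lies at 1.77, Rarb at 1.18 and Rarg at 0.50, and Crabp2, at 1.87, has a standard error of 0.75.

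Other genes that carry, store or convert retinoids were compared from a list of 35, of which 32 were tested. None passed over all genes; 2 had an unadjusted p under 0.05 in edgeR's test, both higher, where 7.39% of all genes tested were higher at that threshold, and 21 had a positive and 11 a negative fold change, with a median of 0.09. Crabp2, the protein that delivers retinoic acid to its receptor, was barely detected, at 0.166 ± 0.123 CPM in controls against 0.608 ± 0.383 CPM under 4-HDHA (SD, n = 5 each; log2 fold change 1.87, SE 0.75; edgeR adjusted p = 0.315). Its highest value, 1.17 CPM, was in 4-HDHA replicate 4, and the groups overlapped. Adh7, a retinol-oxidizing alcohol dehydrogenase, had 0.776 ± 0.427 and 1.44 ± 0.425 CPM (SD, n = 5 each; log2 fold change 0.89, SE 0.38; edgeR adjusted p = 0.327). Summed squamous epithelium markers were lowest in PBS replicate 3 (9.21 CPM), where Crabp2 had 0 counts and Adh7 was lowest. They were highest in 4-HDHA replicates 4 and 5 (266 and 238 CPM), as was Crabp2, whereas Adh7 was highest in 4-HDHA replicates 4 and 3. The part of squamous epithelium in these values was not tested. The heterodimer partners did not pass, and their 95% intervals included 0: Rxra averaged 88.2 CPM in the PBS group and 87.1 CPM in the 4-HDHA group (log2 fold change -0.02, SE 0.10), Rxrb 32.6 and 30.3 CPM (-0.10, SE 0.15) and Rxrg 0.318 and 0.520 CPM (0.71, SE 0.55).

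Genes known to respond to retinoic acid, most of them from embryos, cultured cells or lymphocytes, formed a list of 28, of which 24 were tested. Again 0 passed over all genes; 4 had an unadjusted p under 0.05 by edgeR, all higher (Crabp2, which both lists hold, and the 3 below), beside the same 7.39% of all genes, with 18 positive and 6 negative fold changes and a median of 0.37. The homeobox gene Meis1 had 6.62, 10.2, 9.12, 4.87 and 11.4 CPM with PBS and 18.6, 21.4, 15.8, 30.4 and 4.40 CPM with 4-HDHA (log2 fold change 1.10, SE 0.42; edgeR adjusted p = 0.311). Replicate 5 of the 4-HDHA group was thus the lowest of all 10 libraries and the other 4 lay above every PBS library. Its relative Meis2 had a log2 fold change of 0.94 (SE 0.41; edgeR adjusted p = 0.332) and the same library lowest, at 4.99 CPM. That library also had the lowest smooth muscle sum of the 4-HDHA group, 1491 CPM against 5638 to 8370 CPM in the others. It was lowest of that group, too, for summed fibroblast markers (1455 CPM) and for enteric neuron and glia markers (32.0 CPM). With PBS, both Meis genes were lowest in replicate 4, as were the fibroblast and the neuron and glia sums. The smooth muscle sum with PBS was lowest in replicate 3. The part of these cell types in the Meis values was not tested.

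Rarres2, which encodes the chemoattractant chemerin, was the 1 gene of this list whose groups did not overlap in CPM, where 1.16% of all genes tested had such a separation upward. It had 49.7, 54.0, 52.8, 26.4 and 46.4 CPM with PBS and 55.6, 57.1, 57.2, 76.0 and 59.0 CPM with 4-HDHA. The gap between the groups was narrow, from 54.0 to 55.6 CPM. In FPKM the groups overlapped, with PBS replicate 3 at 19.9 FPKM and 4-HDHA replicate 1 at 17.8 FPKM. The log2 fold change of Rarres2 was 0.41 (SE 0.18, edgeR adjusted p = 0.334), or 0.26 without PBS replicate 4. Of the gut-homing molecules, the integrin alpha4 gene Itga4 averaged 15.9 CPM in controls and 23.6 CPM under 4-HDHA (log2 fold change 0.57, SE 0.26). The integrin beta7 gene Itgb7 averaged 7.93 and 12.9 CPM (0.71, SE 0.42) and the chemokine receptor gene Ccr9 0.749 and 0.907 CPM (0.28, SE 0.57). Medians lay closer together, at 17.8 and 21.5 CPM for Itga4, 6.63 and 8.12 CPM for Itgb7, and 0.617 and 0.616 CPM for Ccr9. The highest 4-HDHA value was 29.8 CPM for Itgb7 and 2.25 CPM for Ccr9. These genes were named after their values were seen and did not pass.

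Coactivators and corepressors of nuclear receptors formed a list of 10, all tested, with 0 passing over all genes and 1 at an unadjusted p under 0.05 by edgeR, where 7.45% of all genes were lower at that threshold. That gene was the corepressor Ncor1, with 127, 115, 138, 141 and 103 CPM with PBS and 89.4, 100.3, 107, 92.3 and 115 CPM with 4-HDHA. PBS replicate 5 lay inside the 4-HDHA range. The log2 fold change of Ncor1 was -0.31 (SE 0.12; edgeR adjusted p = 0.309). Nrip1, a corepressor that is itself induced by retinoic acid, had -0.22 (SE 0.13; edgeR adjusted p = 0.418).

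Genes that varied like these genes within the groups were looked up among 15485 others with a mean of at least 1 CPM, by the correlation of log2 CPM over the 10 libraries after subtraction of each group's mean. As the highest of so many, these correlations carry no p and are a description. Closest to Cyp26b1 were Paqr8, a membrane progestin receptor gene (Pearson r = 0.927, Spearman rho = 0.939, 10 libraries), and Fblim1, which encodes the adhesion protein migfilin (r = 0.915, rho = 0.891). Also among the closest were 9030619P08Rik (r = 0.914, rho = 0.952), a transcript with a pseudogene annotation whose counts are uncertain, and the survival gene Bcl2l2 (r = 0.894, rho = 0.915). Without the 2 libraries farthest from the median of Cyp26b1, these values of r lay between 0.887 and 0.915. Their own fold changes between the groups ran from -0.43 for Paqr8 to 0.11 for Bcl2l2.

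For Aldh1a1 the closest were Me1, the malic enzyme gene (r = 0.940, rho = 0.976), the transcription factor gene Ebf3 (r = 0.938, rho = 0.879) and the muscle phosphofructokinase gene Pfkm (r = 0.931, rho = 0.915); without the 2 libraries farthest from its median these were 0.873, 0.850 and 0.780. For Aldh1a2 they included the galactosyltransferase gene B4galt2 (r = 0.962, rho = 0.891) and Ehd2, a gene of caveolae (r = 0.958, rho = 0.976), with r of 0.909 and 0.917 without its 2 farthest libraries. For Rarb they were Snupn (r = 0.934, rho = 0.867), a nuclear import adaptor gene, the signalosome gene Cops6 (r = 0.931, rho = 0.745) and B230216N24Rik (r = 0.915, rho = 0.830), a transcript annotated inside an intron of another gene; without the 2 farthest libraries these were 0.946, 0.936 and 0.894.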

How the data were processed

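Poly(A) RNA from colon was made into 10 strand-marked libraries and sequenced in paired ends, per the labels' protocols. Build mm10 is listed in the submitters' processing notes, as are StringTie 1.3.4d, HISAT2 2.0.4 and cutadapt 1.9, and also DESeq2 and edgeR, without roles or settings. The authors deposited whole-number counts per gene, not normalized, and FPKM values, scaled to gene length and library size; the counts repeated in the FPKM table differed in 0 cells. Groups and replicate numbers come from the sample descriptions.

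The test was that of edgeR 4.0.16 (R 4.3.3), on the counts, with TMM scaling (filterByExpr, robust quasi-likelihood F test, Benjamini-Hochberg over 19615 genes, threshold 0.05), after a test on simulated data. In those data, edgeR recovered 41 of 100 genes changed 2-fold and 66 of 100 changed 4-fold. A gene that did not pass may therefore still differ by such amounts. CPM are counts scaled with TMM factors, and log2 CPM used a prior count of 2. Intervals and standard errors follow from the F test. Alternatives were DESeq2 1.42.0, limma 3.58.1 (voom, and trend on log2 FPKM), other scalings and filters, the replicate block and each library left out. The genes, lists and the rule for naming were chosen with earlier results of these data known. That rule took all 10 genes of the set, the RXR genes, from each list up to 6 genes with an unadjusted p under 0.05 (at least the 2 smallest), and the genes most alike within groups; a few genes it took are not reported here. Positions are those deposited; 7 of the 10 genes have the same start and end in GENCODE M21.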

Additional observations from a re-analysis of the deposited data

Results flagged for a closer look

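In 20 groups of 5 values (10 genes in both groups), 1 library stood apart from the other 4 of its group by Dixon's test at 95%, where chance flags about 1 in 20. Cyp26a1 in PBS replicate 2 had 0.159 CPM, from 11 counts, while the other 4 PBS libraries had 0 counts. With the other 4 at 0, any count above 0 would be flagged, so the rate of 1 in 20 does not apply here. The Cyp26a1 value rests on few counts and does not bear on a comparison.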

How the results depend on the processing

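With each library left out, and under the RLE, voom, filter, log2 FPKM and replicate block fits, 0 genes passed over the whole table by adjusted p; DESeq2 called 308 (201 higher, 107 lower). Cyp26b1 set aside, 0 genes of the set and 0 of the 3 lists passed under any of these or DESeq2. The fold change of Cyp26b1, which chose the set, was 0.59 on log2(FPKM + 1). Directions turned where fold changes were near 0: with 1 library left out, Rdh10 ranged from -0.11 to 0.21, Aldh1a3 from -0.57 to 0.17 and Rxra from -0.087 to 0.024. With both 4-HDHA replicates 4 and 5 left out (chosen after seeing the data), Rdh10 had -0.062 and Rxrb 0.023. The cause was not tested. By CPM in place of FPKM, Rdh10 and not Dhrs3 ranked first, since CPM does not correct for length. No pairing of the same-numbered libraries was seen: their deviations correlated between -0.316 and 0.0836, and 0 of 5 PBS libraries correlated best with their own number. These values cannot show that no pairing existed. The replicate block gave 0 calls. Low counts limit Cyp26a1, Rarb and Crabp2.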

Other observations

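The DR5 element was found in promoter windows of 31 genes, of which 9 were tested. Of these, 7, Rarb of the chosen set among them, had a positive and 2 a negative fold change with 4-HDHA. Over all genes tested, 10008 were positive and 9607 negative. The median was 0.10 on the log2 scale beside 0.01 over all genes tested. Besides Rarb at 1.18, Syndig1 had 0.78 (SE 0.52), Ppbp 0.76 (SE 0.93) and Cfap45 0.49 (SE 0.20), and Prss27, a serine protease gene, had -1.29 (SE 0.59). The rest were Tnfsf13b at 0.10 (SE 0.31), Gm1043 at 0.07 (SE 0.31), Blvrb at 0.01 (SE 0.15) and Gm4631 at -0.11 (SE 0.30). Membership rests on a short window and the letters searched alone, and the list was made after results of these data were known.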
